A study of Mus musculus with 23 samples.

Results

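The genes described here are 45 that act in G2 and mitosis, the part of the cell cycle in which a cell with copied chromosomes prepares to divide and then separates them. They were taken as a list of gene symbols, and 44 of the 45 averaged 10 or more normalized reads across 23 RNA-seq libraries of mouse proximal small intestine, out of 11939 genes that did so and 16259 in the table. The gene left out, Cdc25c, a phosphatase that activates CDK1, had a mean of 4.98 normalized reads and was at 0 in 8 libraries. A normalized read is a read count divided by 1 factor per library.

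The mice were labelled male and were Ddit4-/- (11 libraries) or wild type (12 libraries), and each combination of genotype, feeding, drug and time had 1 library. Ddit4 encodes an inhibitor of the growth kinase complex mTORC1. Doxorubicin, a chemotherapy that poisons topoisomerase II and damages DNA, was injected into the peritoneum at 20 mg/kg, and tissue was taken 2, 6, 12 or 24 h later from mice that had fasted for 24 h and were then refed (called prefasted here, 8 libraries) or that ate ad libitum (7 libraries). Untreated mice were refed after the same fast for 2 h or 6 h (4 libraries), fasted for 24 h (2 libraries), or fed ad libitum at 0 h (2 libraries). None of the 23 libraries came from a knockout fed ad libitum at 2 h of doxorubicin. There was also no untreated ad libitum group at a later time, so for ad libitum mice the drug and the hours since 0 h cannot be told apart. Fasted mice that were not refed were taken at 0 h only. For refed mice, with or without the drug, the length of refeeding and the hours since 0 h therefore cannot be told apart. No condition was repeated within a genotype, so a comparison of conditions took its knockout and wild-type libraries as the repeats. The p-values rest on a spread pooled over all libraries of a fit, 23 in the main one. In that spread, variation between libraries and unlike responses of the 2 genotypes cannot be told apart.

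In the small intestine, division is confined to the crypts, where stem cells and their transit-amplifying daughters cycle rapidly and replace the epithelium every few days. Cyclins A and B switch on the kinase CDK1, the Aurora, Polo and NEK2 kinases build the spindle, the spindle checkpoint holds anaphase until every chromosome is attached, and CDC20 with the anaphase-promoting complex then triggers the separation of sister chromatids. Many of these genes are transcribed from late S phase to mitosis by the MuvB, B-MYB and FOXM1 complexes, which are known to act at promoter elements called CHR and at CCAAT boxes. DNA damage that activates p53 and p21 is known to shut this program off. Immune cells in lymphoid follicles of the gut also divide, and in whole tissue fewer dividing cells and less RNA per dividing cell cannot be told apart.

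Promoter windows from the RefSeq table (GRCm38.p6, 250 bases before to 50 after each gene's start) were matched by symbol for 39 of the 44 genes, which had 42 windows; Aurkb, Ccna2, Kif20a, Smc4 and Tpx2 had none. The letters TTTGAA, the core of the CHR, were searched on both strands and stood in 32 of the 42 windows (76.2%), against 17.9% of all 32851 windows. With the variant TTTAAA also allowed, 35 windows (83.3%) held a match, against 27.6% of all. CCAAT, on either strand, stood in 34 windows (81.0%), against 37.4% of all, and both kinds stood together in 31 (73.8%), against 10.7%. TTTAAA is its own reverse complement, and a CCAAT can share its last base with a TTTGAA or TTTAAA. A match describes the sequence and is not a binding site. The 7 genes with neither TTTGAA nor TTTAAA in a window were Bub1, Cdc25b, Knstrn, Mad2l1, Nek2, Nusap1 and Pttg1. Of these, Knstrn, Mad2l1, Nusap1 and Pttg1 also lacked CCAAT.

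The promoters of 6 genes that recur below are shown 5′ to 3′ on the gene's own strand, with the CHR words and the CCAAT boxes, on either strand, in capitals. They lie at chr9:70421505-70421804 (Ccnb2, minus strand), chr11:99024140-99024439 (Top2a, minus), chr4:118437294-118437593 (Cdc20, minus), chr15:99651607-99651906 (Racgap1, minus), chr3:135212313-135212612 (Cenpe, plus) and chr2:131186698-131186997 (Cdc25b, plus). The first 5 belong to genes that fell in at least 1 comparison, and Cdc25b is shown because it did not pass the threshold in any. Whether the CHR words go with a fall was not tested. Nek2, Mad2l1 and Knstrn had neither TTTGAA nor TTTAAA and also fell in at least 1 comparison. Bub1b, Bub3, Ckap2l, Ect2, Espl1, Hmmr, Kif11, Kif2c, Kif4, Ncapd2, Plk1 and Ttk held TTTGAA and did not pass the threshold in any comparison in limma.
Ccnb2: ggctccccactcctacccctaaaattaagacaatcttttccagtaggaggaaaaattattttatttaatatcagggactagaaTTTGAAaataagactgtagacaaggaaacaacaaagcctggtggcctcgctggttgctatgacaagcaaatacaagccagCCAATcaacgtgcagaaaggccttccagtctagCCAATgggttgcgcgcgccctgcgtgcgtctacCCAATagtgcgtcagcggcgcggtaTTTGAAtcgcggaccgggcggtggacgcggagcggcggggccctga
Top2a: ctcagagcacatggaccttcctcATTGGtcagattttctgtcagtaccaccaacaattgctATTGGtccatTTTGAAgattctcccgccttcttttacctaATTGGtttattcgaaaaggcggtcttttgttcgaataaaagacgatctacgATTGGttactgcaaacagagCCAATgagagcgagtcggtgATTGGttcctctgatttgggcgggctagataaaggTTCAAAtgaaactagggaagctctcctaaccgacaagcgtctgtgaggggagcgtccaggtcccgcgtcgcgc
Cdc20: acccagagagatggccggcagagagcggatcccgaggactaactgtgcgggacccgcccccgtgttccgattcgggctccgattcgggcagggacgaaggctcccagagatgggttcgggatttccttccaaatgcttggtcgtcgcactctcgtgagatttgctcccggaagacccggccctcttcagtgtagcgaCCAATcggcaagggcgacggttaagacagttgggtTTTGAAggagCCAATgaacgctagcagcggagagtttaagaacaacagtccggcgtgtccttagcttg
Racgap1: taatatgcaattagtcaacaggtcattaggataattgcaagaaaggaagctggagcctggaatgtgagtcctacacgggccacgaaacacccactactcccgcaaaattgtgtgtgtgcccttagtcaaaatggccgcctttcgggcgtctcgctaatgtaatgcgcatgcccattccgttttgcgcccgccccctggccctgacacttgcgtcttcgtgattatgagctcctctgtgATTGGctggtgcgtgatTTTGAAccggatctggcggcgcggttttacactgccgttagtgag
Cenpe: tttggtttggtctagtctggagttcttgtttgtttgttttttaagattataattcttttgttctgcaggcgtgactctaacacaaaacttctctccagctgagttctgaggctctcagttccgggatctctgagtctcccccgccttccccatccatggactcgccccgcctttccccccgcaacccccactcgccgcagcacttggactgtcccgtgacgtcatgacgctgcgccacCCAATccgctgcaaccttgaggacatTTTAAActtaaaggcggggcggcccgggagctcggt
Cdc25b: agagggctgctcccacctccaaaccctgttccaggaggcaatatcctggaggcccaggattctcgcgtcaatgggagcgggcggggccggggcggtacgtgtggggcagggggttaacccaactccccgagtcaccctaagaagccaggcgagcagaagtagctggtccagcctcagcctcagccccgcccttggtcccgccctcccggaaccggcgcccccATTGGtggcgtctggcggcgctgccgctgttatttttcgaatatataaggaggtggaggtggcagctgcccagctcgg

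In Ccnb2 a TTTGAA began 5 bases into the transcript, with CCAAT boxes beginning at -87, -54 and -21. Racgap1 had TTTGAA at 6 and 1 CCAAT box, on the other strand, at -12. Cenpe had no TTTGAA but a TTTAAA at 15, with CCAAT at -12. Positions are those of a word's first base, counted from 1 at the annotated start. The promoter of Cdc25b, which encodes a CDK1-activating phosphatase, held 1 CCAAT box and neither of the other words.

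Depth was 11418115 to 23428519 reads in genes per library, so that 1 read was worth 0.705 to 1.67 normalized reads, and the 44 genes together held 1716 to 11537 reads in a library. Ddit4 averaged 1.83 ± 3.49 normalized reads in knockout libraries (SD, n = 11) and 278 ± 106 in wild-type libraries (SD, n = 12). At most 5 reads fell in Y-linked genes in 3 untreated knockout libraries, namely those of ad libitum, fasted and 2 h refed mice, against 1088 or more in the other 20, although all mice were labelled male. The 4 wild-type prefasted doxorubicin libraries carry titles that say untreated, and their drug label, doxorubicin, was used. Pancreatic acinar markers were high in the untreated wild-type library refed for 6 h and the untreated fasted knockout library, at 10.4 and 8.91 on a log2 scale on which 0 is the average of a gene over the 23 libraries. The acinar limit used below was 3 log2 units above the median library, and 7 libraries exceeded it. They were these, the ad libitum wild type untreated and at 6, 12 and 24 h of doxorubicin, and the prefasted wild type at 24 h of doxorubicin. All 14 enterocyte markers were present. Counts or medians without these libraries are given where a result rests on them.

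The 44 genes moved largely as a block across the 23 libraries. Their median level, on the log2(value + 1) scale with each gene's own average at 0, was highest in the untreated wild-type library refed for 2 h, at 2.07, and that library held the highest value of 36 of the 44 genes. The next 4 libraries were also untreated, namely the knockout fasted (1.61), the knockout refed for 2 h (1.45), the wild type ad libitum (1.41) and the knockout ad libitum (0.86). The untreated fasted wild-type library stood at 0.35, and the untreated libraries refed for 6 h stood at -0.45 in the knockout and -0.34 in the wild type. Of the 15 doxorubicin libraries, 2 stood above 0, the prefasted knockout at 2 h (0.80) and the ad libitum wild type at 24 h (0.49). The lowest was the prefasted knockout at 12 h, at -1.15. Summed over the 44 genes, the values ran from 2404.5 normalized reads in that library to 10668.5 in the wild type refed for 2 h. In 12 of the genes at least 1 library had no read, and folds of such low genes are compressed on the log2(value + 1) scale.

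**Figure D1:**
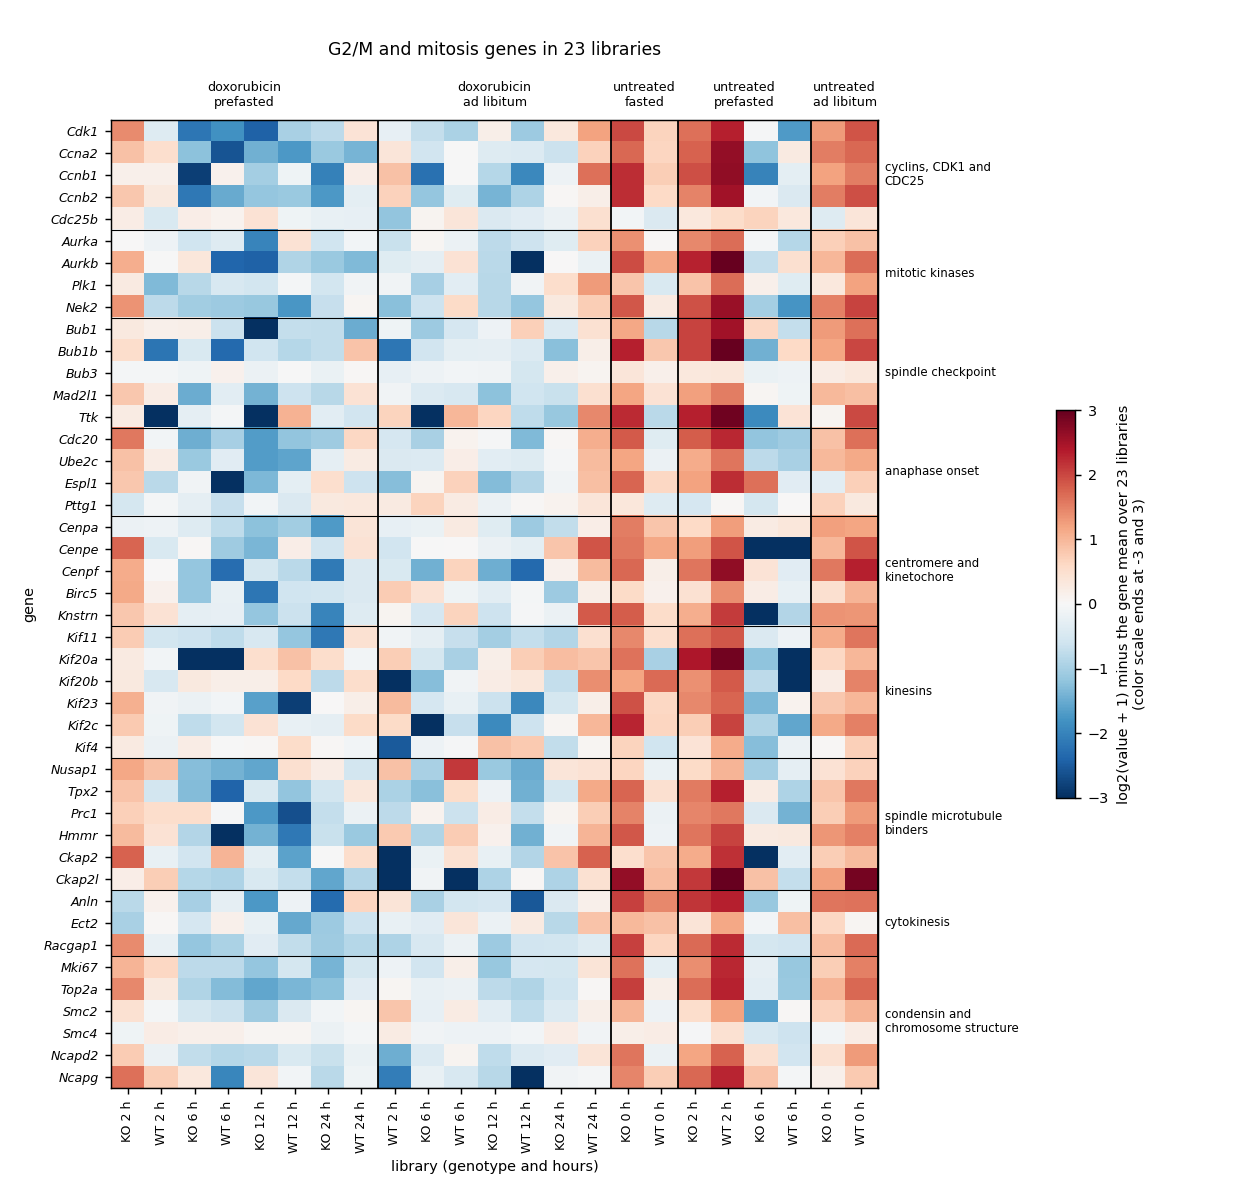
Level of each of the 44 genes (rows, grouped by role) in each of the 23 libraries (columns, knockout and wild type side by side), as log2(value + 1) minus the gene's average over the libraries. The strongest red column is the untreated wild type refed for 2 h, with a median of 2.07, and the prefasted knockout at 12 h of doxorubicin has the lowest median, -1.15.

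**Figure D2:**
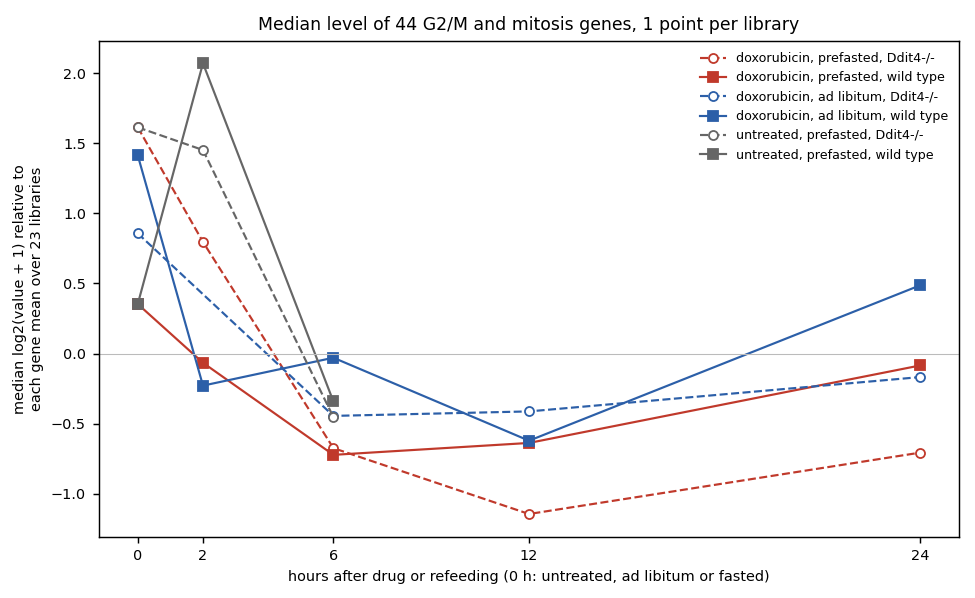
Median relative log2 level of the 44 genes in each library against hours after doxorubicin or refeeding, with 1 point per library, open circles for Ddit4-/- and filled squares for wild type. Lines start at 0 h from the untreated fasted or ad libitum library of the same genotype, and all 6 are below 0 at 6 h.

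Ad libitum mice 12 h after doxorubicin were compared with untreated ad libitum mice to ask what the drug did to the division program. Cyclin B2, topoisomerase II alpha, the proliferation marker Ki-67 and the kinetochore protein CENP-F were among 13 of 44 genes that fell, and none rose, where 4.21% of all 11939 genes tested fell. The estimate was negative for 43 of 44 genes, with a median of -1.86 on the log2 scale, against a median of -0.008 over all genes. In 38 genes both doxorubicin libraries were below both untreated ones, which was so for 29.7% of all genes.

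Among the cyclins and CDK1, Ccnb2, the B-type cyclin that partners CDK1 at mitotic entry, had 22.4 and 31.6 normalized reads in the knockout and the wild type at 12 h of doxorubicin, against 178 and 234 in the untreated knockout and wild type. Both doxorubicin libraries were several times below both untreated ones, and Ccnb2 fell by 2.89 ± 0.56 on the log2 scale (SE, limma, adjusted p = 0.006). Ccna2, the cyclin that works with CDK2 in S phase and CDK1 in G2, had 54.2 and 53.9 normalized reads in the doxorubicin pair, knockout and wild type in this order here and below, against 210.0 and 239 in the untreated pair (log2 change -2.03 ± 0.58, adjusted p = 0.0391). Cdk1 itself had 64.5 and 26.3 normalized reads after the drug, against 140.0 and 212 without it, and Ccnb1, the other B cyclin, had 12.2 and 5.26 against 54.2 and 68.4. In both genes the groups did not overlap, but neither passed the threshold (Cdk1 log2 change -2.04 ± 0.74, adjusted p = 0.0965; Ccnb1 -2.77 ± 0.92, adjusted p = 0.0697). Cdc25b stood apart, with 88.8 and 94.7 normalized reads after the drug against 91.4 and 154 without it, and its groups overlapped.

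Of the 4 mitotic kinase genes, Aurkb and Nek2 fell. Aurkb, the catalytic subunit of the chromosomal passenger complex that corrects faulty attachments, had 10.3 and 1.31 normalized reads after doxorubicin (1 read in the wild type), against 38.4 and 62.5 in untreated mice, and fell by 3.29 ± 0.93 (adjusted p = 0.0377). Nek2, which splits the centrosomes, had 16.8 and 13.2 normalized reads against 90.3 and 128 (log2 change -2.77 ± 0.71, adjusted p = 0.0237). Plk1, needed for centrosome maturation and mitotic entry, had 51.4 and 85.4 normalized reads against 115 and 216, with a log2 change of -1.24 ± 0.55 that missed the threshold (adjusted p = 0.175). Aurka, which builds spindle poles, gave -1.49 ± 0.61 (adjusted p = 0.139).

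At the chromosome and kinetochore, Cenpf, a large kinetochore protein that accumulates in G2, had the lowest log2 change of the 44. It had 5.61 and 2.63 normalized reads after doxorubicin, against 54.2 and 91.2 in untreated mice (log2 change -3.87 ± 0.89, adjusted p = 0.0142). Cenpa, the centromeric histone, fell by 1.92 ± 0.53, Mad2l1, which carries the checkpoint signal, by 1.86 ± 0.48, and Ncapg, a condensin subunit, by 3.06 ± 0.88. Top2a, which untangles sister DNA and is a target of doxorubicin, had 98.2 and 90.7 normalized reads after the drug, against 345 and 562 without it (log2 change -2.21 ± 0.53, adjusted p = 0.0172). Mki67, whose protein coats mitotic chromosomes, had 63.6 and 98.6 normalized reads against 235 and 399.5 (log2 change -1.94 ± 0.56, adjusted p = 0.0395). The 3 other genes that fell act in cell separation, and were Racgap1 (-2.15 ± 0.54) and Kif23 (-2.18 ± 0.65), the pair that forms the centralspindlin complex, and the contractile ring protein gene Anln (-3.13 ± 0.86).

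Of the 4 genes of anaphase onset none passed at 12 h in limma (2 were lower at an unadjusted p under 0.05), although in all 4 both doxorubicin libraries lay below both untreated ones. Cdc20, the activator of the anaphase-promoting complex, had 66.4 and 26.3 normalized reads in doxorubicin mice against 125 and 214 in untreated mice (log2 change -1.94 ± 0.75, adjusted p = 0.118). Ube2c, the ubiquitin-conjugating enzyme of the same complex, gave -1.40 ± 0.43 (adjusted p = 0.0509). The 6 spindle microtubule binders had a median of -1.94, with 4 lower at an unadjusted p under 0.05 and none past the threshold. The only positive estimate of the 44 was for Kif4, a chromosome-bound kinesin, with 119 and 112 normalized reads after the drug against 66.6 and 107 without it (log2 change 0.44 ± 0.48, adjusted p = 0.617). Bub3, a checkpoint protein, had 600.2 and 447 normalized reads against 751 and 805, a change of -0.58 ± 0.18 that missed the threshold (adjusted p = 0.05).

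Marker levels of other cell types differed in the same libraries. Paneth cell markers, which mark the crypt base, were lower in 7 of 8 genes, with a mean relative level of 0.06 in the knockout and -1.09 in the wild type at 12 h of doxorubicin, against 1.19 in both untreated libraries. Lyz1, the Paneth lysozyme, fell by 2.72 ± 0.48 and Defa30, a defensin, by 2.34 ± 0.62. B cell markers stood at -0.74 and -1.26 after the drug, against 0.10 and 3.05 without it, and 0 of 4 passed. Acinar markers stood at -3.50 and 4.45, against -1.57 and 3.37. With the Paneth level as a covariate 0 of the 44 genes passed and the median was -0.76, and with the B cell level 1 passed (Ccnb2) and the median was -1.14. Smooth muscle markers were lower in 5 of 5 genes and 4 fell, with a median change of -2.42 and levels of -1.98 and -0.47 after the drug, against 2.29 and 0.35 without it. Enterocyte markers were higher in 13 of 14 genes and 5 rose, with levels of 0.52 and 0.20, against -0.33 and -0.32. The part of the smooth muscle and enterocyte levels in the result was not tested. Crypt stem cell markers were lower in 10 of 12 genes and 3 fell, among them Olfm4 (-5.76 ± 0.63), a stem cell glycoprotein gene.

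Each of the 4 libraries decided the count at 12 h in limma, and DESeq2 called 22. The limma count was 0 without the wild-type untreated library, 1 without the knockout untreated library, 1 without the wild-type doxorubicin library and 2 without the knockout doxorubicin library, while the median stayed between -1.999 and -1.497 with any 1 of the 23 libraries left out. Dropping the 3 libraries with few Y-linked reads left the wild type alone on the untreated side, and the median was -1.96. Without the 7 libraries above the limit on acinar markers only the knockout pair was left, and the median was its own, -1.255.

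**Figure D3:**
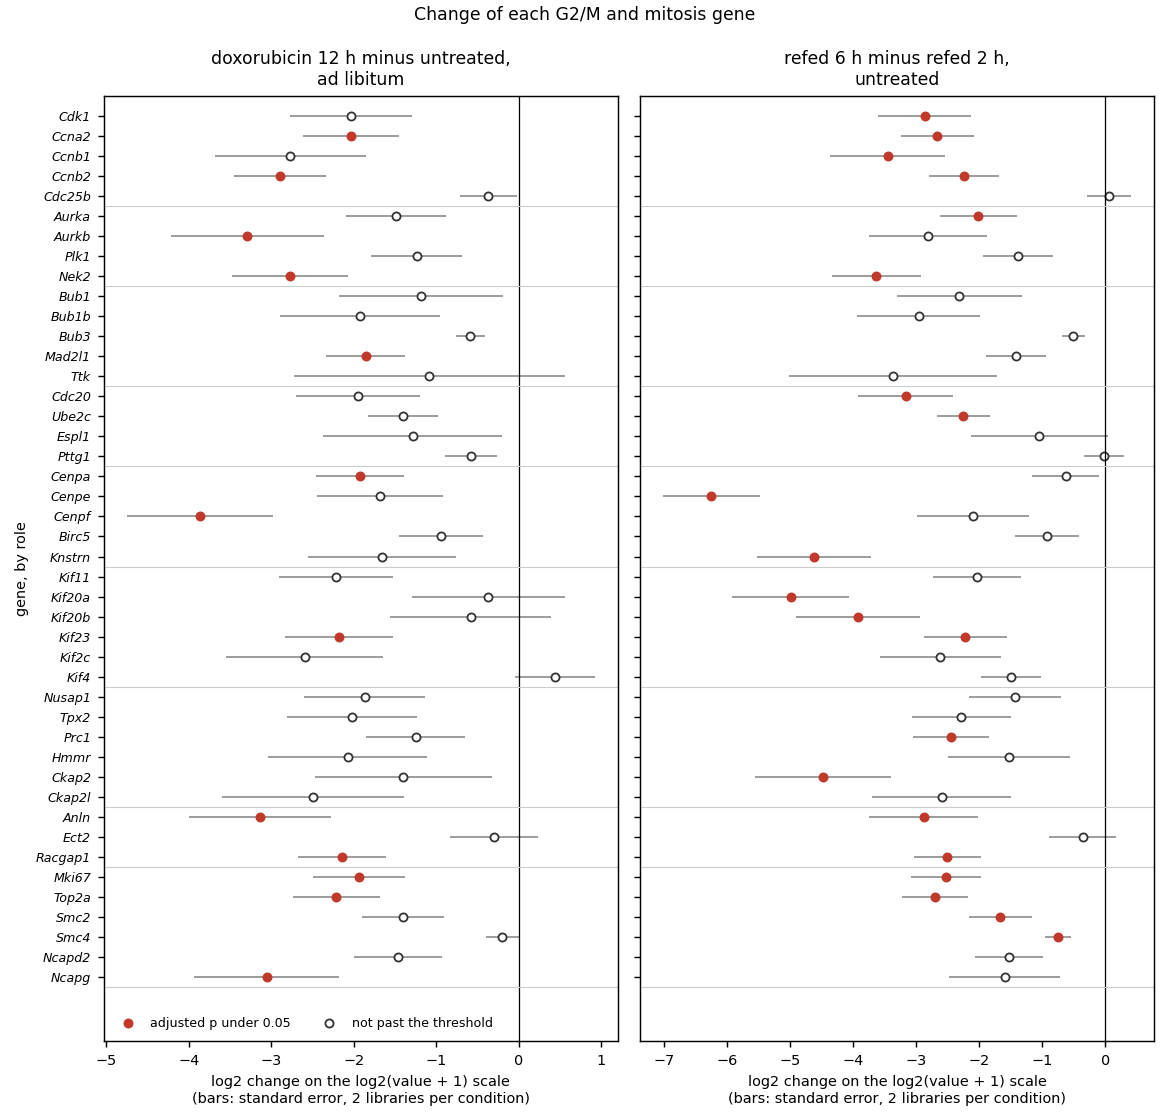
Log2 change of each gene, with its standard error, at 12 h of doxorubicin against untreated ad libitum mice (left) and at 6 h against 2 h of refeeding in untreated mice (right), where filled points have an adjusted p under 0.05. On the left 13 genes are filled and on the right 21, all below 0.

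At 6 h of doxorubicin the genes already stood low, but Ccnb2 was the only one of 44 past the threshold in limma, where 0.436% of all genes fell. DESeq2 called 8 of the 44 there and edgeR 1. It had 26.9 and 47.2 normalized reads, against 178 and 234 in untreated mice (log2 change -2.49 ± 0.56, adjusted p = 0.0373). The median over the 44 was -1.41, 41 estimates were negative, and in 38 genes both doxorubicin libraries were below both untreated ones, against 25.1% of all genes. The lowest estimate was that of Ckap2l, a spindle protein gene, with 10.6 and 0 normalized reads against 28.2 and 91.2 (log2 change -3.93 ± 1.11, adjusted p = 0.0946). Nusap1, which bundles spindle microtubules, was uneven, with 34.2 and 299 normalized reads after the drug, against 92.6 and 111 in untreated mice. Ccnb2 no longer passed without either untreated ad libitum library, without the knockout doxorubicin library at 6 h, or without either doxorubicin library at 12 h, which enter through the shared estimate of spread. It did not pass without the 3 libraries with few Y-linked reads either, or with the Paneth level as a covariate, where the median was -0.61.

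At 2 h of doxorubicin a single wild-type library was available for ad libitum mice, and 0 of 44 genes passed against the untreated libraries in limma, where 0.0670% of all genes changed and 16 of the 44 were lower at an unadjusted p under 0.05. The median was -1.52, and the library lay below both untreated libraries in 37 genes, as it did in 39.1% of all genes. Ckap2l and Kif20b, a kinesin of cytokinesis, had no read in it.

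At 24 h of doxorubicin 0 of 44 genes passed in limma, where 1.37% of all genes fell, and 10 were lower at an unadjusted p under 0.05; DESeq2 called 3. The median was -0.84, and 27 genes were lower without overlap, against 27.9% of all. The median change was -1.165 in the knockout pair and -0.545 in the wild-type pair, and this difference was not tested. In the knockout library Plk1 had 133 normalized reads, Cdc20 69.8 and Cenpe, the kinetochore motor that carries chromosomes to the spindle equator, 44.4, against 115, 125 and 49.7 in the untreated knockout. In the wild-type library the same genes had 224, 145 and 94.2 normalized reads, against 216, 214 and 93.2 in the untreated wild type. Smooth muscle markers were lower in 5 of 5 genes at 24 h and 2 fell, with levels of -1.88 and 0.05, against 2.29 and 0.35 in untreated mice. Top2a was below both untreated libraries in both genotypes, with 112 and 174 normalized reads. Racgap1 did so too, with 38.8 and 43.3 normalized reads against 109.5 and 187, and had the smallest adjusted p of the 44 (0.0799), which passed the threshold without either prefasted doxorubicin library at 2 h.

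The later hours were set against 6 h directly. Between 24 h and 6 h of doxorubicin in ad libitum mice 0 of 44 genes and 0% of all genes passed in limma, with 33 of the 44 estimates positive, a median of 0.34 and 3 genes at an unadjusted p under 0.05, all higher at 24 h. DESeq2 likewise called none of the 44. Kif2c, a kinesin that shortens microtubules at centromeres, had the highest estimate, with 17.6 and 34.6 normalized reads at 24 h against 0 and 10.1 at 6 h (log2 change 2.95 ± 0.96, adjusted p = 0.524). Plk1 had 133 and 224 normalized reads at 24 h against 45.6 and 74.1 at 6 h, with both later libraries above both earlier ones (log2 change 1.55 ± 0.55, adjusted p = 0.564). Without the wild-type library at 24 h the median was -0.045, and without the knockout library at 24 h it was 0.82.

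Over 6, 12 and 24 h together, 9 of 44 genes fell against the untreated ad libitum pair, where 3.66% of all genes fell. These were Ccnb2, Racgap1, Top2a, Ccna2, Mad2l1, Cenpf, Cenpa, Anln and Nek2, and Ccnb2, at -2.33 ± 0.46 (adjusted p = 0.00702), had the smallest p. Cdc25b gave 0.01 ± 0.28, with 126 and 154 normalized reads at 6 h, 88.8 and 94.7 at 12 h and 106 and 168 at 24 h, against 91.4 and 154 in untreated mice. In 26 genes all 6 doxorubicin libraries were below both untreated ones, against 13.4% of all genes. The count rested on the untreated pair, being 0 without either of these libraries and 0 when the 3 libraries with few Y-linked reads were dropped. It was 3 without the knockout library at 24 h, 4 without the wild type at 12 h, 5 without the knockout at 6 h, and 4 and 5 without the untreated wild type and knockout refed for 2 h. The Paneth level as a covariate gave 0, and the B cell level 3. DESeq2 called 19. Over these hours 2 of 5 smooth muscle markers fell and 3 of 14 enterocyte markers rose.

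**Figure D4:**
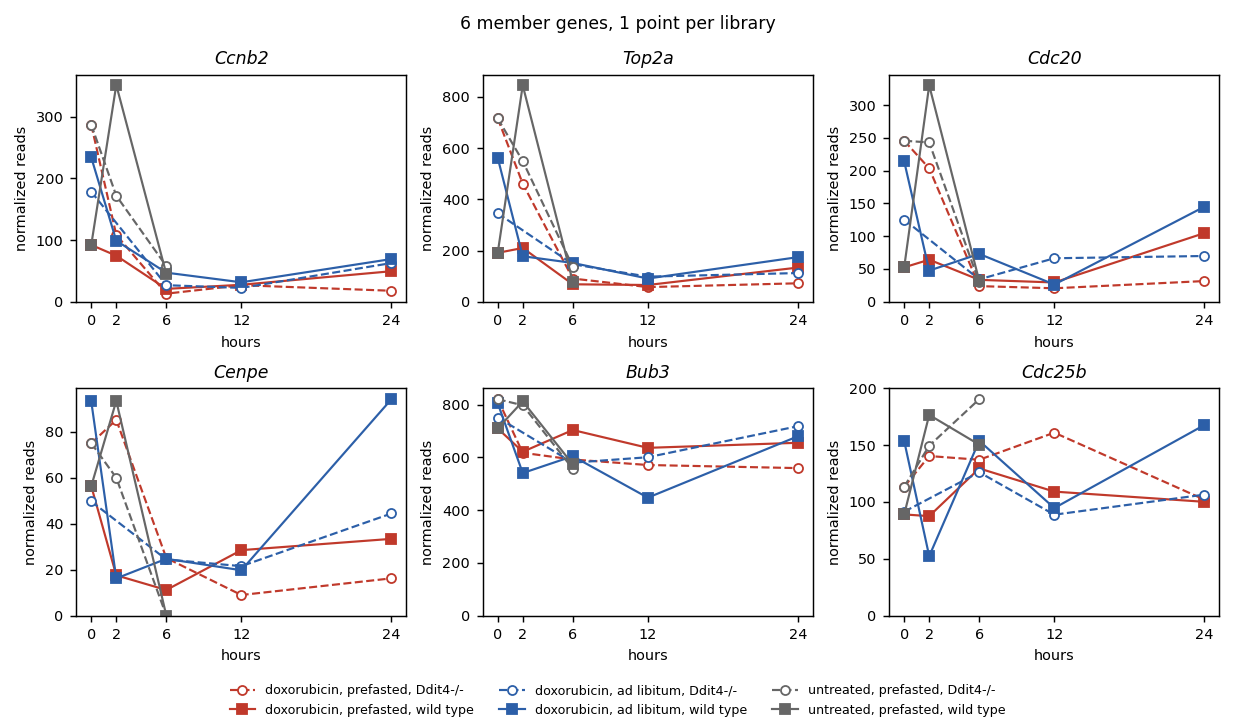
Normalized reads of 6 of the genes against hours after doxorubicin or refeeding, with 1 point per library and open circles for Ddit4-/-. Ccnb2, Top2a and Cdc20 are highest at 2 h of refeeding in the untreated wild type (351, 845 and 330.1 normalized reads), Cenpe is at 0 in both untreated libraries refed for 6 h, and Bub3 stays between 447 and 820.3 in all libraries.

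In prefasted mice, doxorubicin was compared with untreated refeeding at the matched hours, 2 h and 6 h. Over both times 0 of 44 genes passed, where 0.628% of all genes changed, with 16 lower and 1 higher at an unadjusted p under 0.05 in limma and 3 past the threshold in DESeq2. The median was -0.89 and 37 estimates were negative. Ccnb2 had 108 and 74.7 normalized reads at 2 h of doxorubicin and 13.1 and 20.9 at 6 h, against 172 and 351 at 2 h and 57.8 and 45.1 at 6 h in untreated mice (log2 change -1.50 ± 0.39, adjusted p = 0.0864). Doxorubicin was thus lower in all 4 matched pairs of this gene, although the groups overlapped over both hours. Plk1 gave -1.18 ± 0.39 (adjusted p = 0.176) and Cdk1 -1.30 ± 0.52 (adjusted p = 0.252). Without the untreated wild-type library refed for 6 h, 1 gene passed, the spindle gene Ckap2. Without the 4 libraries with conflicting titles, which leaves the drug side to the knockout, 0 passed in limma and the median was -0.52.

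Each hour was then taken alone, and the difference between the hours was not tested. At 2 h the median was -1.21, with 0 of 44 past the threshold in limma (0.0335% of all genes changed). At an unadjusted p under 0.05, 18 were lower. In 37 genes both doxorubicin libraries were below both untreated ones, against 23.8% of all genes. Top2a had 461 and 210.1 normalized reads after the drug, against 549 and 845 without it. Ttk, a checkpoint kinase, had the lowest estimate there, with 8.85 and 0 normalized reads against 40.8 and 62.0. The pairs were unequal, with a median of -0.42 in the knockout and -2.15 in the wild type. At 6 h these medians were -0.38 and -0.19, so the hours were close in the knockout and apart in the wild type only. The wild-type doxorubicin libraries are among those with conflicting titles, and the untreated wild-type library refed for 6 h carried acinar RNA.

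At 6 h the median was -0.37, or -0.38 in the knockout pair and -0.19 in the wild-type pair, and again 0 of 44 passed in limma (0% of all genes changed), with 5 higher and 4 lower at an unadjusted p under 0.05. Without overlap 16 genes were lower and 8 higher, against 15.8% and 16.5% of all genes. Both untreated libraries refed for 6 h were themselves low, so that Top2a had 90.6 and 68.2 normalized reads after the drug against 138 and 78.6 without it. Cenpe went the other way, with 25.1 and 11.1 normalized reads in doxorubicin mice and no read in either untreated library, at least 4.2-fold higher against a floor of 3 reads per library. The adjusted p was 0.0635. The acinar level of the untreated wild-type library, 10.4, stood against -3.69 and -3.28 in the doxorubicin libraries at 6 h.

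In untreated mice at 6 h of refeeding, 21 of 44 genes fell against 2 h, none rose, and 5.40% of all genes fell. Here and in the comparisons of refed with fasted mice below, the length of refeeding and the hours since 0 h cannot be told apart. The median was -2.27, 43 of 44 estimates were negative, and in 40 genes both libraries at 6 h were below both at 2 h, against 27.6% of all genes. By role, 4 of 5 in the group of cyclins, CDK1 and CDC25B, 4 of 6 in the chromosome structure group, 3 of 6 kinesins, 2 of 5 centromere and kinetochore genes and 2 of 4 kinases passed the threshold, while 0 of 5 spindle checkpoint genes did in limma, 4 of them being lower at an unadjusted p under 0.05.

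Cenpe had no read in either library at 6 h, against 60.0 and 93.4 normalized reads at 2 h, and was at least 17.6-fold lower against the floor of 3 reads per library (adjusted p = 0.000937). Knstrn, which helps chromosomes align, had 0 and 18.4 normalized reads at 6 h, against 75.2 and 154 at 2 h (adjusted p = 0.0092). Kif20a, a kinesin of the central spindle, had 3 reads in the knockout and none in the wild type at 6 h, or 3.69 and 0 normalized reads, against 57.6 and 79.5 at 2 h. Cdc20 had 29.5 and 31.8 normalized reads at 6 h against 243 and 330.1 at 2 h, and fell by 3.17 ± 0.75 (adjusted p = 0.0203). Ube2c fell by 2.25 ± 0.43, with 107 and 93.6 normalized reads against 404 and 571 (adjusted p = 0.00821). For all 5 of these genes, both libraries at 6 h lay far below both at 2 h.

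Top2a had 138 and 78.6 normalized reads at 6 h, against 549 and 845 at 2 h (log2 change -2.70 ± 0.53, adjusted p = 0.0092). Mki67 had 117 and 63.5 normalized reads against 373 and 681 (-2.53 ± 0.56, adjusted p = 0.0149). Among the cyclins, Ccnb1 had 4.92 and 18.4 normalized reads against 89.5 and 151 (-3.45 ± 0.92, adjusted p = 0.0301), Ccna2 30.7 and 86.9 against 245 and 453, and Ccnb2 57.8 and 45.1 against 172 and 351. Cdk1 fell by 2.87 ± 0.74, Nek2 by 3.63 ± 0.71, Racgap1 by 2.51 ± 0.54 and Aurka by 2.01 ± 0.61 (adjusted p = 0.0495). Prc1, Anln, Kif23, Kif20b, Ckap2, Smc2 and Smc4 also fell. Smc4, a core condensin subunit, moved least of these, with 295 and 267 normalized reads against 399 and 562 (-0.75 ± 0.20, adjusted p = 0.0324).

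Other differences ran alongside in these 4 libraries. At 6 h, 12357 genes had a read in the knockout and 13236 in the wild type. At 2 h, 14103 and 14247 did. Reads in genes were 14586932 and 11418115 at 6 h, against 20539302 and 17028381 at 2 h. Of the 23 libraries, the knockout at 6 h had the fewest genes with a read, and the wild type at 6 h the fewest reads. The part of depth and of genes detected in the result was not tested. Paneth markers were lower at 6 h in 7 of 8 genes, 5 of which fell, and stood at -1.26 and -0.16 in the knockout and wild type at 6 h, against 1.32 and 2.30 at 2 h. With the Paneth level as a covariate 0 of 44 genes passed, and the median was -0.75. Crypt stem cell markers were lower in 10 of 12 genes, 5 of which fell. The wild-type library at 6 h carried the acinar RNA described above, and the knockout library at 6 h did not, at -1.84. B cell markers stood at -1.55 and -1.39 at 6 h, against -0.85 and -0.39 at 2 h, and with their level as a covariate 17 of 44 genes passed. Fat cell markers stood at -2.84 and -1.19, against 3.64 and 2.47, and their part in the result was not tested. The count of 21 became 1 (Cenpe) without the wild-type library at 2 h, 5 without the knockout library at 2 h, 13 without the wild type at 6 h and 12 without the knockout at 6 h. It was 4 when the 3 libraries with few Y-linked reads, of which the knockout at 2 h is one, were dropped, and 1 without the 7 libraries above the acinar limit.

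Against fasted mice, 7 of 44 genes fell after 6 h of refeeding, where 3.46% of all genes fell, and 43 of 44 estimates were negative, with a median of -1.41. They were Cenpe, Knstrn, Kif20b, Smc4, Racgap1, Nek2 and Top2a. Cenpe had no read at 6 h against 75.0 and 56.3 normalized reads in the fasted knockout and wild type, at least 15.1-fold lower (adjusted p = 0.00338). Top2a had 138 and 78.6 normalized reads against 716 and 191 (log2 change -1.82 ± 0.53, adjusted p = 0.0482). Cdc25b had the only positive estimate, with 190.5 and 150.4 normalized reads against 113 and 89.0 (0.75 ± 0.35, adjusted p = 0.191).

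The fasted libraries were far apart, and the median difference was -1.94 in the knockout pair and -0.75 in the wild-type pair. Without the fasted knockout library, which carried acinar RNA, a B cell level of 3.94 and few Y-linked reads, 0 genes passed and the median was -0.65. Without the fasted wild-type library 12 passed, and without the knockout library refed for 6 h 2 passed. Without any 1 of 10 libraries outside this contrast the count was 3 or 4, and under the Paneth or the B cell covariate it was 1. DESeq2 called 17.

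Refeeding for 2 h was set against fasting, and 0 of 44 genes passed (0.251% of all genes changed in limma), with 2 higher at an unadjusted p under 0.05. The median was 0.77 and 14 genes did not overlap, all higher at 2 h, against 23.1% of all genes. Kif20a had 57.6 and 79.5 normalized reads at 2 h against 32.8 and 4.57 in fasted mice (log2 change 2.32 ± 0.93, adjusted p = 0.461). The genotypes disagreed, with 44 of 44 genes higher in the wild-type pair (median 1.65) and 29 lower in the knockout pair (median -0.15). Mki67 had 373 normalized reads at 2 h against 433 fasted in the knockout, and 681 against 114 in the wild type.

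Fasting for 24 h was compared with ad libitum feeding, and 0 of 44 genes passed (0.343% of all genes changed in limma), with 0 at an unadjusted p under 0.05. DESeq2 called 0. The pooled median of -0.24 averaged opposite moves. In the wild-type pair 41 genes were lower in the fasted library, with a median of -1.06, and in the knockout pair 3 were lower and the median was 0.60. Cdc20 had 246 and 52.5 normalized reads in the fasted knockout and wild type, against 125 and 214 in ad libitum mice, and Top2a had 716 and 191 against 345 and 562. The fasted knockout library stood at 3.94 for B cell and 8.91 for acinar markers, against 0.10 and -1.57 in the knockout fed ad libitum. In the wild type the B cell level was -1.04 fasted and 3.05 ad libitum, and the acinar level was -0.14 and 3.37. In both genotypes the library with the higher B cell level was the one with the higher median of the 44 genes. The same was so of the acinar, goblet and fat cell levels. With the B cell level as a covariate the pooled median was -0.22, and the other levels were not used as covariates here.

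**Figure D5:**
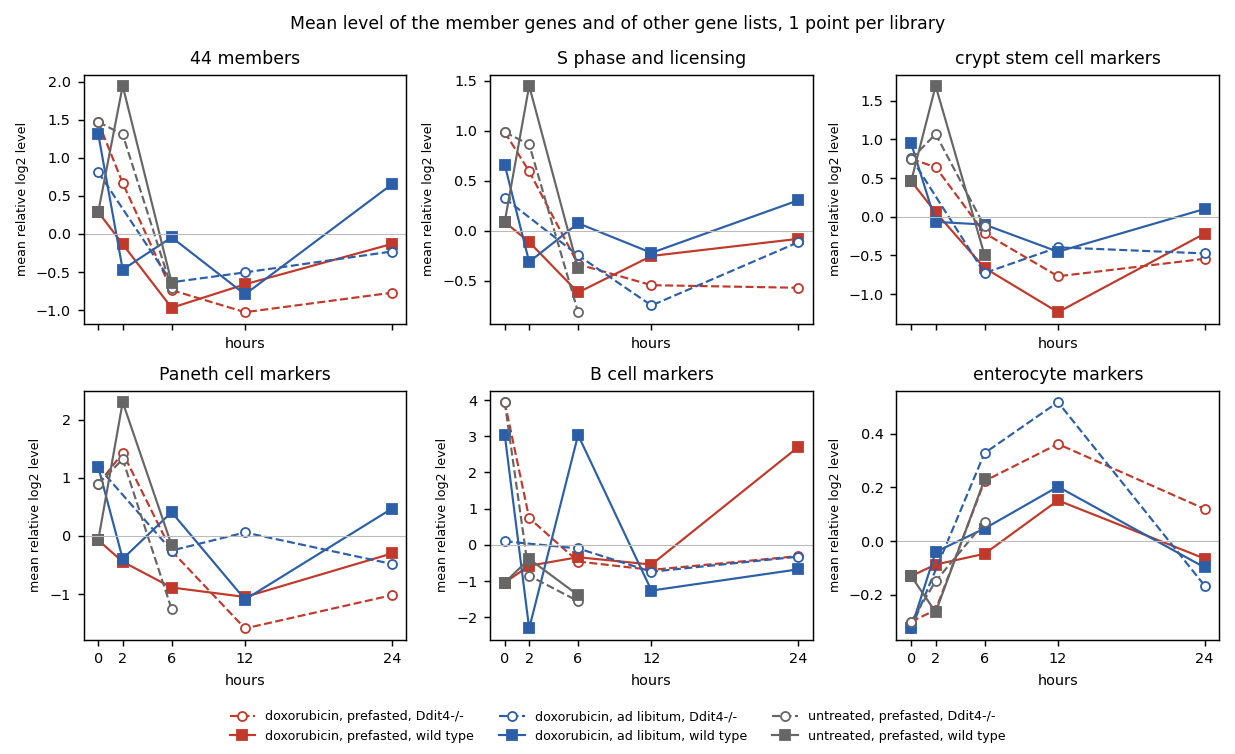
Mean relative log2 level of the 44 genes and of 5 other gene lists in each library against hours after doxorubicin or refeeding, with open circles for Ddit4-/-. The 44 genes, the S phase genes, the crypt stem cell markers and the Paneth markers are all highest in the untreated wild type refed for 2 h (1.94, 1.45, 1.69 and 2.30), whereas B cell markers are highest in the fasted knockout (3.94).

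Whether a 24 h fast followed by refeeding altered the division genes after doxorubicin was tested in 7 pairs matched on genotype and time. In these pairs the fast and the refeeding cannot be told apart. Of the 44 genes 0 passed, as did 0% of all genes in limma, with 8 of the 44 lower and none higher at an unadjusted p under 0.05. DESeq2 also called 0 of the 44. The median was -0.43, lower in prefasted mice in 35 genes, against -0.007 over all genes. By pair, the median was -0.20, -0.30 and -0.45 in the knockout at 6, 12 and 24 h, and 0.25, -0.89, 0.017 and -0.75 in the wild type at 2, 6, 12 and 24 h. It was therefore lower in prefasted mice in 5 of 7 pairs.

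Top2a was lower in the prefasted library in 6 of 7 pairs. In the knockout it had 90.6, 57.2 and 72.1 normalized reads at 6, 12 and 24 h in prefasted mice, against 147, 98.2 and 112 in ad libitum mice. In the wild type it had 210.1, 68.2, 65.5 and 134 normalized reads at 2, 6, 12 and 24 h in prefasted mice, against 178, 152, 90.7 and 174 in ad libitum mice. The log2 difference was -0.55 ± 0.18 (adjusted p = 0.754). Cdk1 gave -0.98 ± 0.33 (adjusted p = 0.754). Hmmr, a spindle assembly gene, had the lowest estimate at -1.45 ± 0.62 and Ncapg the highest at 0.93 ± 0.66. Paneth markers were lower in prefasted mice in 8 of 8 genes, with 0 past the threshold and a median of -0.60, and with their level as a covariate the median of the 44 was -0.061. Without the 4 libraries with conflicting titles, which leaves the 3 knockout pairs, the median was -0.365.

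The prefast effect at 12 and 24 h was set against that at 6 h, and 0 of 44 genes passed in limma (0.00838% of all genes changed), with a median of 0.13 and 4 genes at an unadjusted p under 0.05. DESeq2 called 0 of the 44 there. Bub1, a checkpoint kinase gene, had the lowest estimate (-2.36 ± 1.22) and Kif20a the highest (2.47 ± 1.13). The direction of the median was not stable. It was -0.155 without the 4 libraries with conflicting titles, -0.20 without the 7 libraries above the acinar limit and -0.47 with the B cell level as a covariate, and it ran from -0.113 to 0.374 with each library left out in turn.

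Within prefasted doxorubicin mice, 12 and 24 h were compared with 2 and 6 h. Of the 44 genes 0 passed (0.0921% of all genes changed in limma), 7 were lower and 1 higher at an unadjusted p under 0.05, and DESeq2 called 1. Prc1, which crosslinks the central spindle, had 3.80 to 25.3 normalized reads in the 4 libraries at 12 and 24 h, against 27.9 to 47.5 in the 4 at 2 and 6 h. Every late library was below every early one, with a log2 change of -1.74 ± 0.43 and an adjusted p of 0.138. Kif20a had the highest estimate, with at least 9.21 normalized reads in each library at 12 and 24 h, against 12.2 and 9.34 at 2 h and no read at 6 h. The pooled median of -0.40 averaged opposite moves. It was -0.845 in the knockout, with 40 genes lower at the later hours, and 0.148 in the wild type, with 19 lower, and the difference was not tested. The wild-type libraries here are the 4 with conflicting titles, so that the median without them is the knockout value. With the Paneth level as a covariate the pooled median turned to 0.11. Paneth markers were lower in 7 of 8 genes and smooth muscle markers in 5 of 5, 1 of which fell.

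Ddit4-/- and wild-type mice were compared across 11 matched conditions to ask whether loss of the mTORC1 inhibitor changed these genes. None of the 44 passed in limma, where 0.578% of all genes changed, and 2 were lower at an unadjusted p under 0.05. DESeq2 called 0. The median was -0.096, with 28 estimates negative. The lowest was Ccnb1, at -0.94 ± 0.39 (adjusted p = 0.337), and the highest Ncapg, at 0.65 ± 0.38 (adjusted p = 0.537). Top2a gave 0.12 ± 0.23, Mki67 -0.20 ± 0.24 and Cdk1 0.10 ± 0.32. The median difference by condition ran from -0.91 at 24 h of doxorubicin in ad libitum mice, where 40 of 44 genes were lower in the knockout, to 1.27 in fasted mice, where 41 were higher.

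The knockout effect under doxorubicin was also set against that without drug. Of the 44 genes 0 passed, as did 0% of all genes in limma, none of the 44 was at an unadjusted p under 0.05, and DESeq2 called 0. The median of the difference was -0.23, Bub1 had the lowest estimate (-1.12 ± 0.86) and Ckap2 the highest (1.70 ± 0.88). The direction of the median turned with the libraries used. It was 0.77 without the 7 libraries above the acinar limit, 0.44 without the 2 with most acinar transcripts, 0.161 without either fasted library and -0.44 without the 4 with conflicting titles. All 3 libraries with few Y-linked reads are on the untreated knockout side of this test.

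Not every member followed the block in size of change or in direction. Over the 23 libraries Bub3, Smc4, Pttg1 and Cdc25b had the smallest spread, with standard deviations of 0.22, 0.24, 0.39 and 0.43 on the log2 scale, against 1.77 for Cenpe and for Ckap2l. Bub3 had 447, 621 and 820.3 normalized reads at the lowest, the median and the highest library. Pttg1, the securin that restrains separase, had 134, 221 and 351 normalized reads. Cdc25b had 52.3, 126 and 190.5 normalized reads, and its highest library was the untreated knockout refed for 6 h, where most other members were low. Cdc25b lay on the same side of its average as the median of the other members in 13 of 23 libraries and Smc4 and Pttg1 in 12. Kif20a did so in 15, and Kif20b, Kif4, Nusap1 and Hmmr in 16. Bub3, despite its small spread, did so in 19 and Racgap1 in 22.

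The wider mitotic program was read from a list of 66 other mitosis genes. At 6 h against 2 h of refeeding 17 of the 66 fell and none rose, where 5.40% of all genes fell. They were led by Kifc1, a minus-end kinesin (log2 change -5.42 ± 0.77, adjusted p = 0.00302), Ccnf (-6.90 ± 1.09) and Tacc3 (-2.72 ± 0.47). Foxm1, the transcription factor that drives G2/M genes, fell by 5.81 ± 1.11. No floor on reads was applied to genes outside the 44, here or in the next list. The size of the largest falls may therefore depend on the added 1. Against fasting 10 of 66 fell, where 3.46% of all genes fell. At 12 h of doxorubicin in ad libitum mice 5 fell, Cdca3, Hmgb2, Lmnb1, Bora and Cenpw, where 4.21% of all genes fell. Wee1, the kinase that holds CDK1 inactive, rose by 1.60 ± 0.40 (adjusted p = 0.0205), where 4.78% of all genes rose. For this rise, too, the drug and the hours since 0 h cannot be told apart. The median of the 66 was -1.04 there, against -1.86 for the 44 members. At 6 h of doxorubicin 1 of 66 fell, Cdca3, and at 24 h 1, Tubb4b, against 0.436% and 1.37% of all genes.

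S phase and licensing genes, which act just before G2, were the other cell cycle list. Of 36 genes 1 fell at 12 h of doxorubicin, where 4.21% of all genes fell. It was the activator E2f2 (log2 change -3.87 ± 0.43, adjusted p = 0.00015), and the median of the 36 was -0.62. At 6 h against 2 h of refeeding 11 fell, where 5.40% of all genes fell. Among them were Ccne1 (-5.81 ± 0.97), Mcm5 (-3.94 ± 0.69) and Mcm4 (-1.76 ± 0.33), and the median was -1.68. At 6 h of refeeding against fasting 4 fell, where 3.46% of all genes fell and 3.56% rose. Ccne2, a cyclin of S phase entry, rose there by 2.28 ± 0.66 (adjusted p = 0.048). The difference between these lists and the 44 members was not tested.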

How the data were processed

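RNA from whole proximal small intestine was poly-A selected and sequenced as paired reads with a non-directional kit, per the labels' protocols, so reads of overlapping genes on opposite strands cannot be told apart. Per the submitters' processing notes, Trim Galore, STAR, DESeq2 and mm10 were used; versions, the counter and the annotation are not given in the sources used here. The deposited signal is the number of reads of a gene over a factor that each library has 1 of, and undoing that step gave whole reads for 100% of entries (tolerance 0.01). Values were analysed as log2(value + 1) for genes with a mean of at least 10. limma 3.58.1 (R 4.3.3, eBayes with trend, two-sided) fitted 12 conditions plus genotype to 23 libraries (10 residual degrees of freedom), with separate fits for 7 feeding pairs and for the genotype by drug term. P-values were adjusted by Benjamini-Hochberg over all 11939 genes, with a threshold of 0.05. edgeR 4.0.16 and DESeq2 1.42.0 were run on recovered reads. The fits were tested on simulated reads, drawn for each gene and library on its own. These held no shifts of cell content between libraries and no response that differed between genotypes, so the test does not cover either. The members, lists and tests were chosen with earlier results of these data known. Named genes were a fixed set of 10, all members past the threshold or the 8 with the smallest p, and the largest rise and fall in each comparison, with others added as examples after their values were seen. Alternatives covered the pseudocount, the filter, scaling, marker covariates and each library left out in turn.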

Additional observations from a re-analysis of the deposited data

Results flagged for a closer look

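In 4 comparisons the median of the 44 genes moved in opposite directions in the 2 genotypes, with 1 library per condition and genotype, and the difference was not tested. For fasting against ad libitum feeding it was 0.60 in the knockout and -1.06 in the wild type. For 2 h of refeeding against fasting it was -0.15 in the knockout and 1.65 in the wild type. For prefasted against ad libitum mice at 12 h of doxorubicin it was -0.30 in the knockout and 0.017 in the wild type. For 12 and 24 h against 2 and 6 h of doxorubicin in prefasted mice it was -0.845 in the knockout and 0.148 in the wild type, whose 4 libraries are those with conflicting titles. The fasted knockout library enters the first 2 of these. No group of the study holds 4 or more libraries, so no library could be tested for standing apart within its group.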

How the results depend on the processing

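Counts below are of the 44 genes past the threshold, and medians are of their log2 changes. With a mean of at least 50 the counts were 4 (6 h of refeeding against fasting) and 12 (against 2 h). With no filter they were 0, 6 and 4 at 6 h, 12 h and all hours of doxorubicin in ad libitum mice, and 4 against fasting. Quantile normalization gave 2 and 1 at 6 and 24 h of doxorubicin and 2 against fasting. DESeq2 gave 8, 22, 3 and 19 at 6, 12, 24 h and all hours of doxorubicin, 3 for prefasted doxorubicin against untreated, 1 for late against early prefasted hours, and 17 against fasting. Without the 3 libraries with few Y-linked reads the counts were 0, 2 and 0 at 6 h, 12 h and all hours, 0 against fasting (median -0.67) and 4 against 2 h, and the fasted median was -1.06. Without the 7 libraries above the acinar limit they were 0, 0 (median -1.25) and 0, then 0 against fasting (median -0.62) and 1 against 2 h, and the median of the knockout by drug term turned to 0.77. Without the 2 libraries with most acinar transcripts, chosen after seeing the data, they were 1 at 24 h, 14 over all hours, 3 for prefasted doxorubicin and 3 against fasting (median -0.38), with a fasted median of -1.01 and a knockout by drug median of 0.44. The Paneth covariate gave 0, 0 and 0 at 6 h, 12 h and all hours (medians -0.61, -0.76 and -0.59), a median of -0.25 at 24 h and of 0.11 for late against early prefasted hours, 1 against fasting (median -0.70) and 0 against 2 h (median -0.75). The B cell covariate, added after seeing the data, gave 2, 1 and 3 at 6 h, 12 h and all hours (medians -1.14 and -0.89 at 12 h and all hours), a median of -0.30 at 24 h, 1 for prefasted doxorubicin, a median of -0.47 for the prefast effect by time, and 1 against fasting (median -0.71). The cause of these moves was not tested.

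With each of the 23 libraries left out in turn, the count ran from 0 to 1 at 6 h, 0 to 15 at 12 h, 0 to 1 at 24 h and 0 to 11 over all hours of doxorubicin, 0 to 1 for prefasted doxorubicin against untreated, 0 to 12 for 6 h of refeeding against fasting and 1 to 22 against 2 h, and it stayed at 0 in the other comparisons. The median ran from -1.801 to -1.08 at 6 h, -1.999 to -1.497 at 12 h, -1.316 to -0.316 at 24 h, -0.045 to 0.819 between 24 and 6 h, -2.143 to -0.647 for 6 h of refeeding against fasting and -2.666 to -2.006 against 2 h. For fasting against ad libitum feeding it ran from -0.99 to 0.496, for the prefast effect by time from -0.113 to 0.374, and for the knockout by drug term from -0.476 to 0.161. Where a condition was left with 1 library, that library was assumed to vary like the others. edgeR, a pseudocount of 5, TMM scaling and leaving out the 4 libraries with conflicting titles kept each count within 1.5 times. Without those 4 libraries, however, the median was -0.52 for prefasted doxorubicin against untreated (-0.89 with them), -0.845 for late against early prefasted hours (-0.40), -0.155 for the prefast effect by time (0.13), -0.365 for the 7 feeding pairs (-0.43), -0.128 for the 11 genotype pairs (-0.096) and -0.44 for the knockout by drug term (-0.23). The prefast effect by time was -0.20 without the 7 libraries above the acinar limit. The labels give no replicate numbers, so no replicate block was fitted, and the paired comparisons are of feeding, matched on genotype and time, and of genotype, matched on condition. Low genes limit precision, since 12 of the 44 had a library with no read.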
